A study of Bos taurus with 34 samples.

Results

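Circulating miRNAs of dairy cows with subclinical endometritis were compared between a late and an early blood sampling after calving. The comparison took every library whose labels give subclinical endometritis (SCE), in which the endometrium is inflamed but the cow looks well, and paired them by animal number. It holds 22 of the 34 libraries of the series, from 11 cows, numbered 7 to 17, with 1 library at day 25 and 1 at day 45 from each. The other 12 libraries are from 6 healthy cows at the same samplings and serve below as a reference. The design text places the samplings at 21 and 44 days postpartum and names the material plasma, while the labels say day 25, day 45 and serum. No treatment, breed or age is given, and both samplings of a cow carry the same status, so the label does not say whether the inflammation was still present at day 45.

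miRNAs are short RNAs that guide repression of matching messenger RNAs. In blood they are carried in vesicles, in protein complexes and, where cells break, in what those cells release. Red blood cells, platelets and white blood cells supply much of the pool, and liver, muscle, endothelium and epithelia add tissue-specific members. In the weeks after calving the uterus shrinks, clears debris and bacteria and rebuilds its lining, while the cow enters peak milk production. In a cell-free sample, a higher value of a miRNA cannot be told apart from lower values of the other miRNAs counted, and release by more cells cannot be told apart from more release per cell.

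Total counts ran from 1343401 to 14085868 at day 25 (median 8454315) and from 678389 to 19747294 at day 45 (median 9354855). Cow 10 had the lowest total at both days. Of 800 miRNA names, 773 had a count in SCE cows and 27 had none. Cow 7 at day 25 stood apart because 79.0% of its counts were miR-486. Counts of 9 pairs of names differed by less than 1%, among them miR-22-3p and miR-3600, miR-3065 and miR-338, and let-7b and miR-3596, so their reads cannot be told apart. Both names of a pair enter the library totals, and so the percentages of counts given below. The blood cell miRNAs miR-451, miR-223 and miR-142-5p were present in every SCE library. The muscle miRNAs miR-1 and miR-206 had 1 and 0 counts over all day-25 libraries and 33 and 11 over all day-45 libraries.

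No single miRNA passed the test between the days. The edgeR quasi-likelihood test with the cow as a block called 0 of 346 miRNAs (0.0%), and the lowest adjusted p was 0.598. DESeq2 also called 0, with 30 of 773 at an unadjusted p under 0.05, of which 18 were higher and 12 lower at day 45. By edgeR, 24 miRNAs (6.94%) had an unadjusted p under 0.05, against 17.3 expected by chance for independent tests. Of these, 4 (1.16%) had a higher and 20 (5.78%) a lower value at day 45. That split depended on the scaling of the libraries: with DESeq2-type size factors in edgeR it was 13 higher and 5 lower, and with miR-486 left out of the counts it was 14 higher and 6 lower. The median log2 fold change of all tested miRNAs was -0.15 with TMM and -0.0071 with those size factors, a shift of 0.14. For single named miRNAs that scaling added between 0.050 and 0.19, while percentages of counts and ratios within a library do not depend on it. The count was 5 without cow 12, 10 without cow 17 and 11 without cow 14, and it was 33 without cow 9. Without cows 7, 8 and 10 together it was 47, with 30 higher and 17 lower. These cows were chosen after seeing the data, by miR-486 share, the spread described below and depth. Cow 12 was kept, although by that spread it stood further apart than cows 7 and 10. In it 53.1% of 224 miRNAs differed by more than 2-fold, against 38.8% in cow 7 and 33.5% in cow 10.

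What the libraries could exclude was bounded by the spread between cows. The median standard error (SE) of a log2 fold change was 0.35, and for 167 of 346 miRNAs (48.3%) the 95% interval lay within a 2-fold difference in either direction. All 95% intervals given here use a normal quantile. They are narrower than intervals matching the F test, so 167 is an upper count. Fitted values beyond a 2-fold difference were found for 7 miRNAs. Of these miR-486 was higher, and miR-545-3p, miR-383, miR-2299-3p, miR-2483-5p, miR-11999 and miR-95 were lower. No miRNA had the same direction in all 11 cows. In at least 10 cows the direction was shared for 5, of which miR-151-5p, miR-12044, miR-10180-3p and miR-7857-5p were lower and miR-140, a miRNA rich in cartilage, was higher (log2 fold change 0.48, unadjusted p = 0.056). miR-383, miR-2299-3p, miR-2483-5p, miR-11999, miR-95 and miR-140 fall outside the rule for named miRNAs and are given because they complete these counts.

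The most abundant miRNA, miR-486, differed in both directions between cows. miR-486 is made in the red blood cell lineage and is the leading miRNA of many blood samples. It took 4.0 to 79.0% of counts at day 25 (median 10.8%) and 3.95 to 52.1% at day 45 (median 36.5%). Cows 12 and 15 went from 6.26 to 51.5% and from 8.72 to 52.1%. Cows 14 and 17 started at 4.0 and 4.04% and reached 21.9 and 21.3%. Cows 16, 11 and 10 had smaller increases, from 4.06 to 10.6%, 10.8 to 17.5% and 43.4 to 50.5%. The opposite order was seen in cow 7, from 79.0 to 36.5%, cow 9, from 27.8 to 3.95%, and cow 8, from 49.4 to 37.6%, while cow 13 had 41.8 and 41%. The share was thus higher at day 45 in 7 cows and lower in 4, by a mean of 5.91 percentage points (exact sign-flip permutation p = 0.463, two-sided). After scaling, its fold was 2.0 with a 95% interval of 0.812 to 4.94 (adjusted p = 0.687). Paired and unpaired fits gave opposite signs, with log2 fold changes of 1.0 and -0.35.

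**Figure D1:**
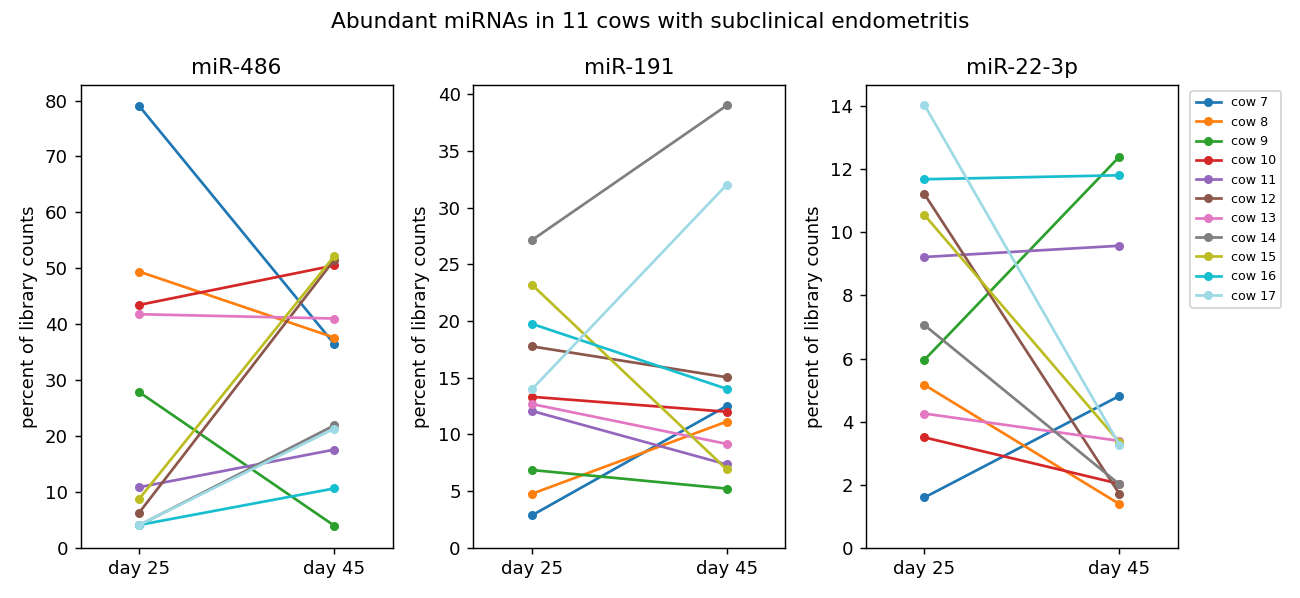
Percent of library counts taken by miR-486, miR-191 and miR-22-3p at day 25 and day 45, with 1 line per cow (11 cows with subclinical endometritis, 1 library per cow and day). Lines for miR-486 cross, with 7 going up and 4 down, and cow 7 starts at 79.0%; for miR-22-3p the 4 steepest drops are those of cows 12, 17, 15 and 14.

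The next miRNAs by abundance took different courses in single cows. miR-191, abundant in white blood cells and platelets, lay between 2.84 and 27.1% of counts at day 25 and between 5.21 and 39% at day 45, with a log2 fold change of 0.12 (SE 0.32; -0.03 without cow 17). It was the leading miRNA in cows 14 and 16 at both days. miR-22-3p, an erythroid and muscle miRNA, took 14% of counts in cow 17 at day 25 and 3.27% at day 45, and 11.2% and 1.71% in cow 12. In cow 9 it went the other way, from 5.96 to 12.4%. miR-192, a miRNA of liver, kidney and gut epithelium, stood at a log2 fold change of 0.07 (SE 0.24) and was the leading miRNA of cow 9 at day 45. miR-142-5p, made in blood cells, stood at -0.11 (SE 0.23; 0.02 with DESeq2-type size factors). miR-423-5p stood at -0.34 (SE 0.32), miR-27b at -0.48 (SE 0.25), miR-26a at -0.45 (SE 0.33) and miR-21-5p at 0.48 (SE 0.40). None of these had an adjusted p under 0.598.

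Single cows carried some of the largest differences. miR-21-5p, which many tissues raise in inflammation and repair, spanned 5797 to 29087 CPM (a count relative to the library total, TMM-normalized) at day 25 and 7262 to 140273 at day 45. In cow 8 its log2 difference was 4.6, and in no other cow did it exceed 1.54. miR-101, which represses the chromatin enzyme EZH2, had its largest difference in the same cow, at 3.97. miR-133a, a skeletal and heart muscle miRNA, had a log2 difference of 5.75 in cow 10, the cow of lowest depth, and of -3.26 in cow 8. Its paired log2 fold change was 0.55 (SE 0.62), against 2.35 without the block. miR-143 of smooth muscle and stroma stood at 0.71 paired and 1.63 unpaired, with log2 differences of 3.58 in cow 17 and 3.29 in cow 13 and of -1.89 in cow 9. miR-122, the hepatocyte miRNA, had a median of 4.33 CPM at day 25 and 8.43 at day 45. Its log2 difference was 4.37 in cow 10 and 3.86 in cow 12 but -4.50 in cow 14.

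Among the 4 miRNAs of low unadjusted p with higher values at day 45, miR-362-3p had the lowest p. It belongs to an X-linked cluster with miR-188, miR-532, miR-502a and miR-660. Its CPM ran from 0.0 to 12.4 at day 25 (median 4.81) and from 0.947 to 26.6 at day 45 (median 8.75), so the days overlapped. It was higher at day 45 in 9 cows and lower in cows 15 and 16, with a fold of 1.86 (95% interval 1.18 to 2.95, unadjusted p = 0.016, adjusted p = 0.598). Its neighbours did not share that value: miR-532 stood at 0.25 and miR-660 at 0.0047 on the log2 scale, miR-502a at -0.62 and miR-188 at -0.70. In the leave-one-out fits its unadjusted p stayed between 0.0041 and 0.048.

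miR-19b, a member of the miR-17-92 cluster, was at 269 to 1480 CPM at day 25 (median 509) and 297 to 2572 at day 45 (median 676). Only cows 9 and 14 had lower values at day 45, and the fold was 1.55 (95% interval 1.08 to 2.21, unadjusted p = 0.027). miR-30a-5p, of a family linked to autophagy and epithelial differentiation, was at 544 to 5203 CPM at day 25 (median 1423) and 1154 to 5463 at day 45 (median 3180). It was higher in 9 cows and lower in cows 7 and 11, with a fold of 1.65 (95% interval 1.08 to 2.51, unadjusted p = 0.032). miR-101 ran from 1330 to 8550 CPM at day 25 (median 2662) and from 1487 to 34645 at day 45 (median 3880). It was higher in 8 cows with a fold of 1.74 (95% interval 1.07 to 2.84, unadjusted p = 0.039). For these 3 miRNAs the days overlapped and the adjusted p was 0.598. Without cow 8 the log2 fold change of miR-101 was 0.59 in place of 0.80, and that of miR-19b was 0.50 in place of 0.63.

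Among the miRNAs of low unadjusted p with lower values at day 45, 3 abundant ones are described first. miR-22-3p, counted also under the name miR-3600, was at 30741 to 117667 CPM at day 25 (median 60221) and 14592 to 97020 at day 45 (median 35195). The days overlapped, 8 of 11 cows were lower at day 45, and the fold was 0.604 (95% interval 0.409 to 0.893, unadjusted p = 0.021). Its other arm, miR-22-5p, stood at -0.45 on the log2 scale, against -0.73 for miR-22-3p. miR-186, which lies in an intron of ZRANB2, was at 9480 to 24903 CPM at day 25 (median 16823) and 5451 to 24117 at day 45 (median 9867), with a fold of 0.645 (95% interval 0.465 to 0.894). It was higher in cows 11, 13 and 16, by at most 0.11 on the log2 scale, and lower by more than 1 in cows 8, 12, 14 and 17. miR-151-5p, a platelet-rich miRNA from the gene of focal adhesion kinase, was at 696 to 5055 CPM at day 25 (median 2705) and 435 to 3751 at day 45 (median 1490). Cow 7 alone had a higher value at day 45, and the fold was 0.607 (95% interval 0.418 to 0.881, unadjusted p = 0.017).

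Both arms of miR-425 had lower values at day 45. miR-425 and miR-191 are made from 1 transcript within the gene DALRD3. miR-425-5p was at 638 to 2455 CPM at day 25 (median 1634) and 370 to 2109 at day 45 (median 864), with a fold of 0.664 (unadjusted p = 0.033). miR-425-3p was at 64.1 to 321 CPM at day 25 (median 158) and 23 to 311 at day 45 (median 106), with a fold of 0.640 (unadjusted p = 0.036). Each was lower in 9 of 11 cows, by 2.14 on the log2 scale in cow 8 for either arm. Cows 13 and 16 had nearly the same value of each arm at both days. Without cow 8 the log2 fold changes were -0.40 and -0.46, and their unadjusted p values reached 0.071 and 0.093 over the fits without 1 cow. miR-191 of the same locus was higher in 6 of 11 cows. The log2 ratio of miR-425-5p to miR-191, which needs no scaling, was lower at day 45 by a mean of 0.73 but in only 6 of 11 cows (exact sign-flip permutation p = 0.183, adjusted p = 0.228 over 5 ratios, two-sided).

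Further miRNAs of low unadjusted p had lower values at day 45. miR-222, which represses KIT and the cell cycle inhibitor p27, was at 81.8 to 300 CPM at day 25 (median 210) and 77.2 to 218 at day 45 (median 117). It was lower in 9 cows, with a fold of 0.664 (95% interval 0.491 to 0.898, unadjusted p = 0.016), whereas miR-221 from the same transcript stood at -0.05 on the log2 scale (0.10 with DESeq2-type size factors). miR-197, found in platelets, was at 36.2 to 212 CPM at day 25 (median 114) and 39.2 to 108 at day 45 (median 79.0), with a fold of 0.646. miR-328 had a median of 34.5 CPM at day 25 and 17.8 at day 45, and a fold of 0.609. Both were lower in 9 of 11 cows. miR-1306, which is cut from the transcript of the miRNA processing gene DGCR8, had a fold of 0.599 and was lower in 8 cows.

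Scarce miRNAs had larger fitted values on few counts. miR-545-3p was at 0.0 to 7.68 CPM at day 25 (median 1.90) and 0.0 to 5.27 at day 45 (median 0.654), with a log2 fold change of -1.56 (SE 0.61). It passed the count filter in only 7 of 11 fits without 1 cow. Its other arm, miR-545-5p, was more abundant (mean 13.3 against 2.73 CPM, by library totals). That arm stood at 0.59 (SE 0.47) and was higher at day 45 in 8 of 11 cows. The log2 ratio of the 5p to the 3p arm was higher in 7 of 11 cows, by a mean of 2.27 (exact sign-flip permutation p = 0.059, adjusted p = 0.328). miR-2320-5p stood at -0.93, from a median of 15.4 to one of 8.32 CPM, and in cow 10 its log2 difference was -6.31. miR-12044 (-0.77), miR-10180-3p (-0.96) and miR-7857-5p (-0.88) had medians under 6 CPM at day 25, and each was lower in 10 of 11 cows. miR-7857-3p of the same hairpin as miR-7857-5p stood at -0.69. miR-11973, at a median of 56.3 CPM at day 25 and 29.0 at day 45, stood at -0.55. The remaining 3 names of unadjusted p under 0.05, miR-652 (-0.55) and the inseparable miR-3065 and miR-338 (-0.69), lie past the 20 of lowest p and complete the 24. All 24 had an adjusted p of 0.598. The 20 of lowest p kept their direction in all 24 other settings tried that tested them. They were chosen for low p in these libraries, which the settings reuse, so a kept direction is no independent evidence. An unadjusted p under 0.05 was kept in 3 of 11 fits without 1 cow for miR-328 and miR-11973. For miR-362-3p and miR-151-5p it was kept in 11 of 11.

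**Figure D2:**
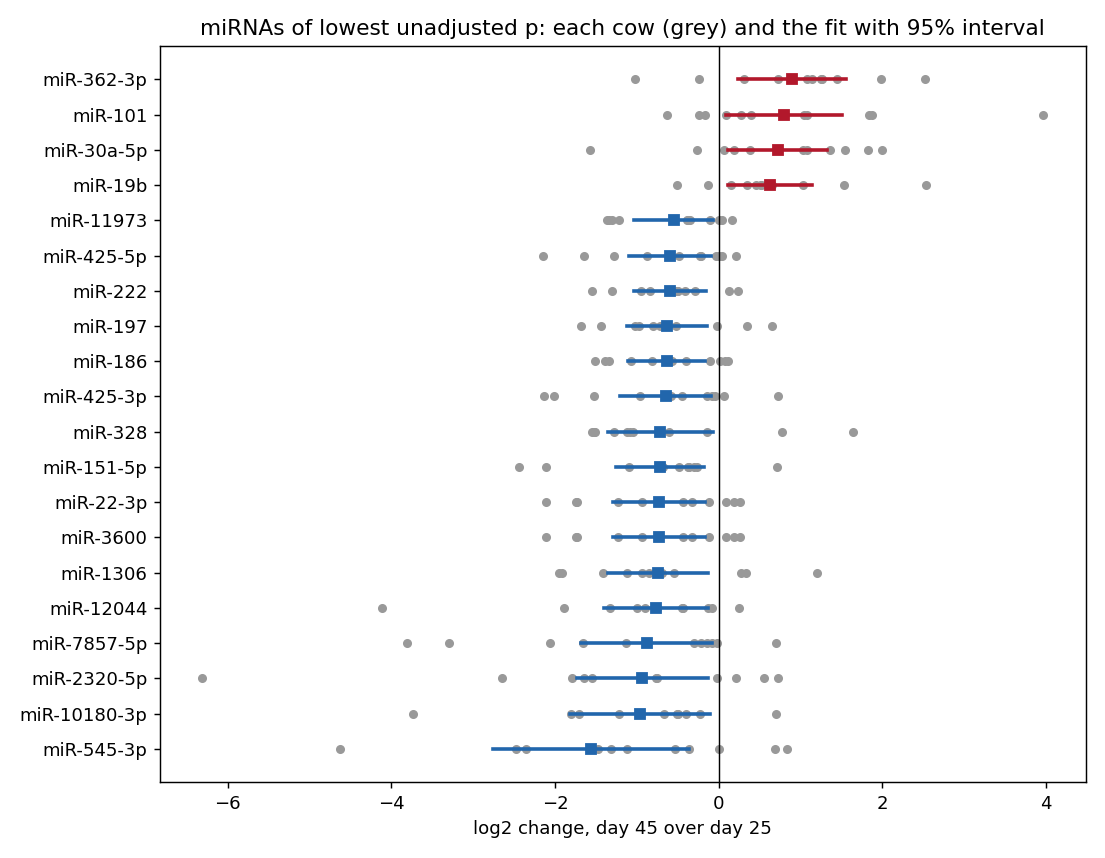
Log2 difference between day 45 and day 25 for the 20 miRNAs of lowest unadjusted p, ordered by the fitted value. Grey points are the 11 cows, squares the edgeR fit with the cow as a block (red higher, blue lower at day 45) and bars its 95% interval; every row has cows on both sides of 0, and no adjusted p is below 0.598.

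The 2 arms of a hairpin come from 1 precursor and their ratio within a library needs no scaling. Over 28 hairpins with both arms tested, 4 had an exact sign-flip permutation p under 0.05, and none passed adjustment (lowest adjusted p = 0.319, two-sided). These ratios were chosen for study after the values of single arms were seen. For miR-21 the log2 ratio of the 5p to the 3p arm was between 3.25 and 5.38 at day 25 (median 4.02) and between 3.78 and 8.51 at day 45 (median 5.35). It was higher at day 45 in 9 of 11 cows, by a mean of 1.25 ± 1.42 (SD, n = 11; exact sign-flip permutation p = 0.020). For miR-151 it was between -3.28 and 0.350 at day 25 (median -0.56) and between -4.38 and 0.219 at day 45 (median -1.91). It was lower in 9 of 11 cows, by a mean of 1.01 ± 1.31 (SD, n = 11; exact sign-flip permutation p = 0.025). Single arms of these hairpins thus had opposite signs, with miR-21-5p at 0.48 and miR-21-3p at -0.59, and miR-151-5p at -0.72 and miR-151-3p at 0.25. The ratio was also lower at day 45 for miR-1388 in 9 cows (mean -0.38, exact permutation p = 0.034) and for miR-2483 in 10 cows (mean -0.95, exact permutation p = 0.046). With 1 cow left out the exact permutation p reached 0.039 for miR-21, 0.051 for miR-151, 0.068 for miR-1388 and 0.092 for miR-2483. The mean for miR-2483 was -0.49 without cow 8. For miR-425, miR-423 and miR-126 the mean differences were 0.047, 0.019 and 0.031, with SDs between 0.60 and 0.70.

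Neighbouring miRNAs within 10000 bases in the RefSeq annotation were of mixed sign. Of 25 loci with at least 3 tested names, 9 had every name on 1 side of 0, and of the 13 with at least 4 names 1 did, the miR-192 and miR-194 cluster. Some names are in several loci, and sharing of a sign was not tested. The miR-193a locus entered the 9 more than once with the same names. The miR-22 and miR-199a loci, also among the 9, hold names of near-identical counts, miR-22-3p with miR-3600 and miR-199a-3p with miR-3604. The 7 tested members of the miR-17-92 cluster included 6 of higher value at day 45, and the 6 of the X-linked miR-106a cluster included 5 (all 6 with DESeq2-type size factors), with miR-19b and miR-92a in both because their copies share a name. All 3 of the miR-106b, miR-93 and miR-25 cluster were higher, as were all 4 of the miR-192 and miR-194 cluster and the 3 of the let-7e, miR-99b and miR-125a cluster. The 3 tested names of the miR-193a locus and the 3 of the miR-30b and miR-30d locus were lower. The miR-23a, miR-24 and miR-27a locus and the miR-127 locus each had 2 higher and 2 lower, and the miR-188 and miR-362 cluster had 3 higher and 2 lower. The miR-200a, miR-200b and miR-429 cluster, restricted to epithelia, had 1 higher, miR-429 at 0.01, and 2 lower (all 3 lower with library totals). Of all 346 miRNAs tested 130 were higher and 216 lower (169 higher with DESeq2-type size factors), and no member of these loci passed the test.

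Lists of miRNAs by cell or tissue of origin had medians between -0.16 and 0.27, against -0.15 for all tested miRNAs. These lists name possible sources of RNA and identify no cell in a cell-free sample. Lists by family or cluster had medians of 0.06 for let-7, 0.19 for DLK1-DIO3 and 0.40 for miR-17-92 with its paralogs. The furthest from the others was the miR-17-92 cluster with its paralogs, a set linked to cell proliferation. Of its 15 members, all tested, 13 had higher values and the median log2 fold change was 0.40, with 0 adjusted calls and miR-19b alone at an unadjusted p under 0.05. Its members lay between -0.29 for miR-17-3p and 0.66 for miR-106a. miR-19a and miR-20b stood at 0.62 and 0.61, while the abundant members were at 0.15 for miR-92a and 0.53 for miR-25. The count was 12 to 14 of 15 with each cow left out, and the median 0.23 to 0.54. With miR-486 relative to miR-23a added to the fit as a covariate, 10 of 15 were higher and the median was 0.10. This list was chosen with results of these samples known and its count is no independent evidence of a direction.

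**Figure D3:**
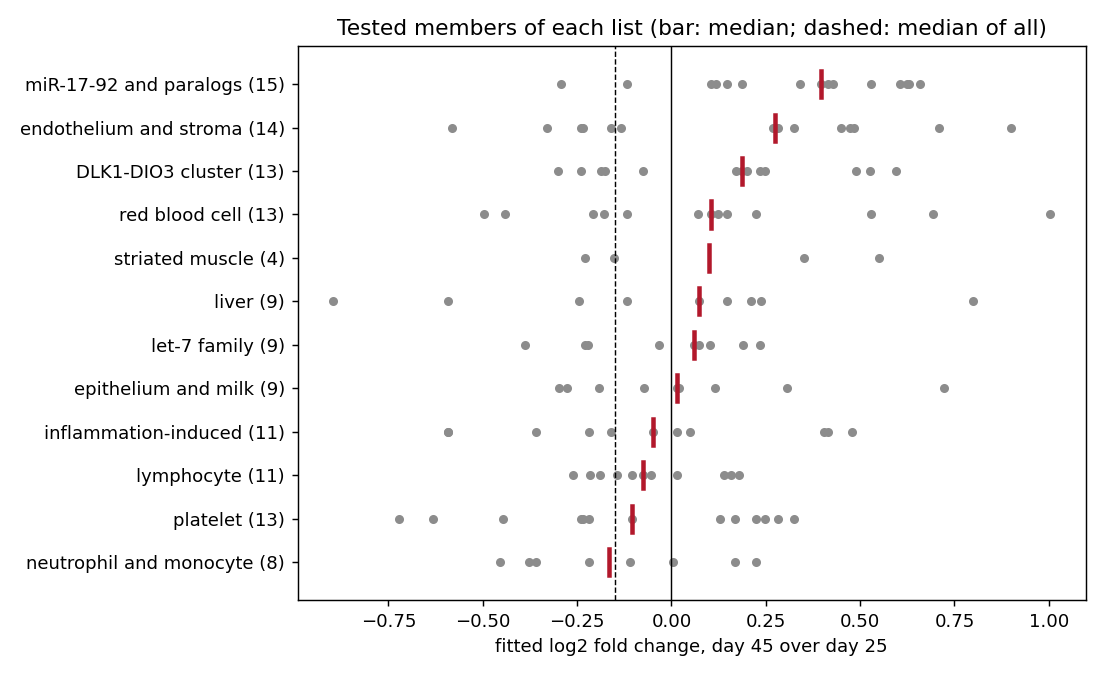
Fitted log2 fold change (day 45 over day 25) of each tested member of 12 miRNA lists as grey points, with the list median as a red bar and the number of tested members in brackets. The dashed line is the median of all 346 tested miRNAs at -0.15, and the miR-17-92 list has the highest median, 0.40; the platelet, lymphocyte and inflammation-induced medians turn above 0 with DESeq2-type size factors, and the epithelium and milk and let-7 medians below 0 with library totals.

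Red blood cell miRNAs did not share a direction. Of 13 tested members 8 were higher, with a median of 0.10 (-0.06 without the block). miR-486 at 1.0, miR-185 at 0.69 and miR-25 at 0.53 were above 0, while miR-16a at -0.50, miR-16b at -0.44, miR-15a at -0.21 and miR-451 at -0.18 were below. miR-451 and miR-144 are made from 1 erythroid transcript, and miR-144 stood at 0.07. miR-451 was higher in 6 of 11 cows, with log2 differences from -4.15 in cow 8 to 2.55 in cow 15. miR-451 relative to miR-23a, a common measure of red blood cell RNA in serum given as a log2 ratio, ran from -0.49 to 4.47 at day 25 and from -0.33 to 4.49 at day 45, with a mean difference of 0.086 (exact sign-flip permutation p = 0.907). With miR-486 in its place the ratio was higher at day 45 in 8 of 11 cows, by a mean of 1.17 (exact sign-flip permutation p = 0.221). The summed level of the list was higher in 8 cows. That sum is mostly miR-486 (mean 283521 CPM by library totals without TMM, against 9883 for miR-92a), which was itself higher in 8 cows. The list median was 0.0079 without cow 17 and 0.24 without cow 9. With the miR-486 covariate 2 of 13 were higher and the list median was -0.15. miR-486 is a member of this list and part of that covariate, so its own value in that fit is not informative.

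Platelet and white blood cell lists stood near the median of all miRNAs. Of 13 tested platelet members 6 were higher, with a median of -0.10 (0.04 with DESeq2-type size factors), and miR-151-5p and miR-197 were the 2 at an unadjusted p under 0.05. miR-126-3p and miR-126-5p, shared with endothelium, stood at -0.24 and -0.23 and miR-199a-3p at 0.32. Without cow 8 the platelet count was 8 of 13 and the median 0.050. The neutrophil and monocyte list had 3 of 8 higher and a median of -0.16. Its myeloid miR-223 stood at 0.22, and miR-23a and miR-27a-3p, neighbours in 1 cluster, at -0.38 and -0.45. The lymphocyte list had 4 of 11 higher and a median of -0.07 (0.09 with DESeq2-type size factors). Its members lay between -0.26 and 0.18, with miR-150 of mature lymphocytes at 0.16 (-0.08 without cow 11), miR-155 of activated lymphocytes at 0.01 and miR-181a at -0.05 (0.09 with DESeq2-type size factors). Its median was above 0, at 0.024 to 0.031, without cow 12, 14, 16 or 17, and 0.11 with the miR-486 covariate, where 9 of 11 were higher.

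Inflammation-induced miRNAs were divided. Of 11 tested members 5 were higher, with a median of -0.05 (0.10 with DESeq2-type size factors). miR-21-5p at 0.48, miR-31 at 0.41 and miR-146b at 0.40 were the highest. miR-146a, a feedback inhibitor of Toll-like receptor signalling, stood at -0.36, miR-132 at -0.22, and miR-222 and miR-21-3p at -0.59. miR-155 stood at 0.01. The summed level of the list was higher in 6 of 11 cows. That sum is mostly miR-21-5p (mean 25236 CPM by library totals without TMM, against 3538 for miR-221), which was itself higher in 6 cows. The list median was 0.045 without cow 10 and 0.062 without cow 16.

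Tissue lists were likewise mixed. For endothelium and stroma 8 of 14 were higher with a median of 0.27, from miR-195 at -0.58 and miR-497 at -0.33, which share a cluster, to miR-143 at 0.71 and miR-10b at 0.90. The count was 12 of 14 without cow 8, the median was 0.078 without cow 17 and 0.45 without cow 7, and with the miR-486 covariate 5 of 14 were higher and the median was -0.061. miR-10b had medians of 7428 CPM at day 25 and 15328 at day 45, and log2 differences of 3.93 in cow 12 and 3.62 in cow 17 against -1.42 in cow 9. The liver list had 5 of 9 higher and a median of 0.07, with miR-101 at 0.80, miR-122 at 0.21, miR-148a at 0.15 and miR-193a-3p at -0.90. Its median was -0.16 without cow 10 and -0.074 without cow 12. The epithelium and milk list had 5 of 9 higher and a median of 0.01 (-0.04 with library totals). In it miR-30a-5p stood at 0.72, miR-205 at 0.31, miR-375 at 0.12 and miR-200b at -0.30. Its median was below 0, at -0.085 to -0.018, without cow 10, 11, 12 or 17, and with the miR-486 covariate 1 of 9 was higher. Of 4 tested striated muscle miRNAs miR-133a and miR-378 were higher, and miR-499 and miR-208b lower, with a median of 0.10 (-0.053 without cow 10). The let-7 family, repressors of growth genes, had 5 of 9 higher and a median of 0.06 (-0.07 with library totals), from let-7b at -0.39 to let-7g at 0.23, with let-7f at -0.23. Its median was -0.049 without cow 7 and -0.15 without cow 8. Of the imprinted DLK1-DIO3 cluster 52 names were in the files and 13 were tested, of which 8 were higher, with a median of 0.19. Without cow 8 all 13 were higher with a median of 0.41, and without cow 12 the median was 0.073. miR-409b, miR-381 and miR-380-3p were each higher in 9 of 11 cows, at 0.60, 0.53 and 0.25, while miR-127 stood at 0.24 and miR-411a at 0.20. No list held a miRNA with an adjusted p under 0.05, where the share over all miRNAs was 0.0%.

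Cows differed in how far apart their 2 libraries were. Among 224 miRNAs with a mean of at least 10 CPM, 63.4% differed by more than 2-fold between the days in cow 8 and 53.1% in cow 12. At the other end were 4.91% in cow 13, 7.14% in cow 16 and 14.3% in cow 11. Cow 8 had the largest increase of any cow for 74 of the 224 miRNAs and the largest decrease for 50. Levels across the 224 miRNAs correlated at r between 0.848 and 0.989 within a cow (median 0.947), a value across miRNAs of 2 libraries and no test. The deviations of a cow's libraries from the day means correlated at a median r of 0.27 within cows, from -0.35 in cow 8 and -0.28 in cow 12 to 0.86 in cow 16, and at -0.034 between different cows.

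**Figure D4:**
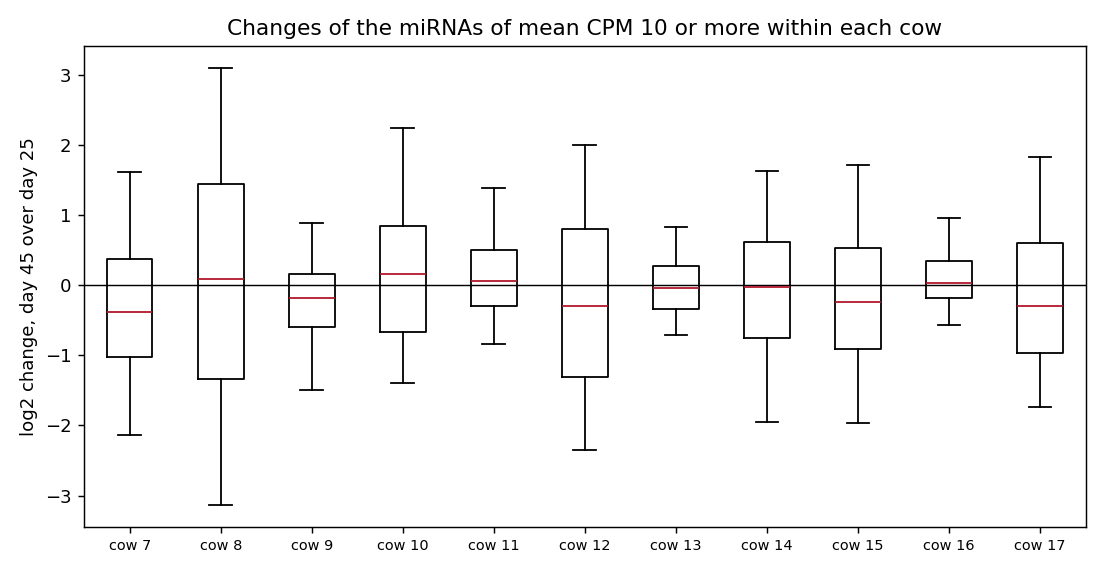
Log2 difference between day 45 and day 25 within each of the 11 cows over 224 miRNAs of mean CPM 10 or more. Boxes span the quartiles with the median in red, and whiskers reach the 5th and 95th percentiles; cows 8 and 12 have the widest boxes, and cows 13 and 16 the narrowest.

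Some miRNAs differed more between cows than between the 2 libraries of a cow. The day means were removed first, so cows are not compared with days here. The share of variance that lay between cows had a median of 34.1% over the 224 miRNAs. It exceeded 50% for 58 and was 0 or below for 20, where the estimate has no lower bound at 0. It was highest for miR-429 (88.4%), an epithelial miRNA, miR-2415-3p (83.3%) and miR-215 (82.7%), a relative of miR-192 in gut and liver. miR-1388-3p (81.0%) and miR-877 (80.2%) followed, and miR-192 itself was at 76.3%. The lowest values belonged to miR-30f, let-7f and miR-15a, and miR-451 (5.44%) and miR-486 (14.5%) were also low. These miRNAs were ranked by this value and it is given as a description.

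Library measures did not separate the days. The mean log2 total was higher at day 45 by 0.14 (exact sign-flip permutation p = 0.614). After thinning to 678389 counts per library the median number of miRNAs detected was 376 at day 25 and 353 at day 45, with a mean difference of -11.5 (exact sign-flip permutation p = 0.271). The 10 most abundant names took a median of 72.0% of counts at day 25 and 77.4% at day 45, with a mean difference of 2.38 percentage points (exact sign-flip permutation p = 0.409). The inseparable miR-3600 and miR-22-3p, which rank 3 and 4 by mean CPM, count as separate names in this share. Adjusted over the 6 measures, with the 3 of red blood cell miRNAs above, no p was below 0.694.

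Whether the difference between days was itself different in healthy cows was tested in the 11 SCE and 5 healthy cows with 2 distinct libraries. The day-25 file of healthy cow 3 repeated its day-45 file, so these were counted as 1 sample and that cow was left out. The edgeR test of the status by day term called 0 of 408 miRNAs (0.0%). An unadjusted p under 0.05 was found for 6 (1.47%), with 1 difference above 0 (0.245%) and 5 below (1.23%), and DESeq2 called 0 with 19 at an unadjusted p under 0.05. The edgeR count was 28 without healthy cow 2, 25 without healthy cow 5 and 12 without healthy cow 6, and 4 without SCE cow 15 or 16. The lowest p belonged to miR-195, a smooth muscle and endothelial miRNA that slows the cell cycle. In that fit it was at a log2 fold change of 1.87 in healthy and -0.51 in SCE cows, a difference of -2.38 (SE 0.74, unadjusted p = 0.00335, adjusted p = 0.977). Its value was higher at day 45 in 5 of 5 healthy and 4 of 11 SCE cows. The others, named after their values were seen, were miR-2483-5p (-2.83), miR-27a-3p (-1.18), miR-21-3p (-1.28), miR-2465 (-2.76) and miR-365-5p (2.55). miR-27a-3p and miR-21-3p were each higher at day 45 in 4 of 5 healthy cows, and in 3 and 2 of 11 SCE cows. For miRNAs of low p in SCE cows, values in healthy cows in that fit were -0.22 for miR-19b and 0.20 for miR-30a-5p and miR-101. They were 0.47 for miR-362-3p, 0.37 for miR-22-3p, -0.20 for miR-222, 0.44 for miR-151-5p and 0.0015 for miR-186. miR-197, miR-328 and miR-1306 stood at -1.44, -1.06 and -0.89 in healthy cows. Of the 5 healthy cows, 4 were lower at day 45 for miR-197 but only 2 for miR-328 and 2 for miR-1306. Fitted sign and most healthy cows also differed for miR-362-3p and miR-186 (each higher in 2 of 5) and for miR-19b (higher in 3 of 5).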

How the data were processed

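Per the labels' protocols, each library took 10 to 20 ng of small RNA and 13 or 16 PCR cycles, with no record per library of the cycles. The deposited files hold raw counts per mature bovine miRNA, not normalized by the authors. Per the submitters' processing notes, bcl2fastq 2.17.1.14, build UMD3.1 and DESeq2 were used; the aligner and counter were not named in the labels or headers. No molecular identifiers are named, so counts are of reads after PCR.

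Day 45 was compared with day 25 by the edgeR 4.0.16 quasi-likelihood F test (R 4.3.3), with the cow as a block, TMM, the default count filter and Benjamini-Hochberg adjustment at 0.05, two-sided. The samples of a cow come from the same animal, which pairs them; deviations correlated at a median r of 0.27 within cows, over 0.1 in 9 of 11, and 5 day-25 libraries were closest to their own cow's. The script was tested on simulated counts with a moderate dispersion and changes larger than most fitted here. That checks the code and gives no measure of power in these data. P-values of library measures and arm ratios came from exact sign-flips over cows, with 0.5 added to counts in ratios. Differences of single SCE cows are log2 CPM with a prior count of 2. Counts of healthy cows higher or lower used the log2 of CPM plus 1, with TMM over all 33 libraries used. Alternatives used DESeq2 1.42.0, limma 3.58.1, other scalings, filters and covariates, and left out cows. Neighbours came from RefSeq on ARS-UCD2.0, where 782 of 800 names matched, by name only. Mature sequences were not used here, so planned GC measures and seed families were not computed.

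The comparison, its members and the lists were chosen with earlier results of these data known. Named miRNAs are the 20 of lowest p, the 10 most abundant, the 2 most abundant of each list and their other arms, unless stated.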

Additional observations from a re-analysis of the deposited data

How the results depend on the processing

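The cow as a replicate block was part of the test, since the same cow gave both samples. Without the replicate block the 24 miRNAs of unadjusted p under 0.05 became 14, of which 4 were shared. No alternative called a miRNA between days. The count was 6 with library totals, 40 with no filter, 13 at a mean CPM of at least 10 and 27 with near-identical names counted once. It was 41 with miR-451 relative to miR-23a as a covariate beside the replicate block, 47 without cows 7, 8 and 10 (chosen after seeing the data) and 5 to 33 with each cow left out. For the difference between statuses the 6 became 19 with DESeq2, 12 with no filter and 4 to 28 with each cow left out, again with no call. Of 52 named miRNAs, 38 kept their sign in all settings that tested them. These 38 include the 20 chosen for low p in the same libraries.

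The other 14 reversed under at least 1 setting, and the cause was not tested. Without the block miR-486 was -0.35, miR-192 -0.054, miR-221 0.15 and let-7i 0.12. With miR-486 relative to miR-23a as a covariate miR-486 was -0.12, which is circular because miR-486 is part of that covariate. In the same fit let-7f was 0.14, miR-127 -0.05, miR-92a -0.031, miR-192 -0.034, miR-181a 0.071, miR-221 0.013 and let-7i 0.021. With miR-451 in place of miR-486 in the covariate miR-221 was 0.0060. DESeq2 and DESeq2-type size factors in edgeR gave miR-142-5p 0.018 and 0.024, miR-181a 0.082 and 0.088, miR-221 0.10 and let-7i 0.11 and 0.12. At a mean CPM of at least 10 miR-142-5p was 0.0098, miR-181a 0.072, miR-221 0.086 and let-7i 0.10. With miR-486 left out miR-181a was 0.058, miR-221 0.073 and let-7i 0.092, and with limma voom let-7i was 0.0017. miR-142-3p was -0.013 with library totals, -0.024 with near-identical names counted once and -0.016 without cows 7, 8 and 10, where miR-423-3p was 0.027 and miR-423-5p 0.18.

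With each cow left out miR-92a ran from -0.00052 to 0.32, miR-142-5p from -0.18 to 0.0036, miR-150 from -0.084 to 0.48, miR-191 from -0.031 to 0.30 and miR-192 from -0.021 to 0.18. miR-181a ran from -0.19 to 0.031, miR-221 from -0.21 to 0.062, let-7i from -0.18 to 0.10 and miR-142-3p from -0.23 to 0.24. The log2 total difference ran from -0.041 to 0.25, the log2 ratio to miR-23a from -0.28 to 0.48 for miR-451 and 0.82 to 1.67 for miR-486, and the miR-486 share from 1.98 to 10.8 percentage points. The number of miRNAs detected ran from -17.1 to -6.72 and the share of the top 10 from 0.991 to 4.19 percentage points. The GC offset and the GC slope per cow were not run. Depth limits scarce miRNAs most, above all in cow 10.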
